A study of Homo sapiens with 6 samples.

Results

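The 10 genes described here make, carry, break down or read retinoic acid: the retinaldehyde dehydrogenases ALDH1A1, ALDH1A2 and ALDH1A3, the retinaldehyde reductase DHRS3, the binding protein CRABP2, the hydroxylases CYP26A1 and CYP26B1, and the receptors RARA, RARB and RARG. They were chosen by symbol and taken as the entry on a primary chromosome, and all 10 were listed among the 41497 named entries of each library. Poly(A) RNA of HK-2 cells (human kidney cells of the proximal tubule, immortalised, wild-type genotype) was sequenced after 24 h with TGF-β1 (3 libraries) or without it (3 control libraries). The labels give medium with fetal bovine serum for the culture. The methods of the study describe TGF-β treatment as serum-free, and whether the control cells were kept the same way was not stated. The same methods give 5 ng/mL TGF-β for treatment experiments in general, with no dose given separately for the sequenced cells, and no added retinoid is named. All libraries come from 1 cell line, and nothing in the labels says that they came from separate cultures, so p values measure the spread between these libraries, which may be technical.

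Retinoic acid is made from vitamin A in 2 steps. Retinol is oxidised to retinaldehyde, a step that can be turned back by reductases such as DHRS3, and the ALDH1A enzymes then oxidise retinaldehyde to retinoic acid. CRABP2 carries retinoic acid to the nucleus, where the RAR proteins, paired with an RXR, bind response elements and switch genes on when they hold retinoic acid. CYP26 enzymes clear it. In the developing kidney the pathway sets ureteric bud branching, and in the adult organ it is known for activity in the collecting duct.

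Among the genes that retinoic acid itself is known to switch on are RARB and CYP26A1, through a response element made of paired copies of the receptor's core motif spaced by 5 bases (a DR5 element). The element is shown because it ties a receptor and a degrading enzyme to the same signal. All 10 genes had RefSeq promoter windows (GRCh38.p14, 300 bases, from 250 before a start site), 19 windows in all. Both strands were searched. A DR5 was found in 1 window of RARB and 1 of CYP26A1 and in none of the other members' windows, against 31 of 35116 windows of all genes (0.0883%). The same core motif spaced by 1 base or by 2 bases was in 46 (0.131%) and 14 (0.0399%) of all windows and in none of the members'. Of the 64 other pathway genes described below, which include genes known to be induced by retinoic acid, 47 had a window. None of them had a match at any of these spacings, so the search does not mark such genes in general. Capitals mark the paired motif, and the core copies run on the plus strand in RARB and on the minus strand in CYP26A1.
RARB, chr3:25428163-25428262, plus strand: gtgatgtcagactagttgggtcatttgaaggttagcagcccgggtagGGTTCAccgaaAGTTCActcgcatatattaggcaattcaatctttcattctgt
CYP26A1, chr10:93073797-93073825, plus strand: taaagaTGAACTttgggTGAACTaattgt
The RARB element lies 53 to 37 bases before a RefSeq start site. In GENCODE v29 these 100 bases are within the gene span and in no exon. The CYP26A1 element lies 90 to 74 bases before a start site, and the same bases are annotated as untranslated exon in another CYP26A1 transcript and lie in the span of AL358613.3, so only 29 bases are given. A match is a description of the letters and not a measured site.

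The library totals were 21.9 to 26.9 megacounts. At the threshold of an adjusted p under 0.05 (edgeR quasi-likelihood test over 14860 entries), 44.3% of entries were called in either direction, 22.2% higher and 22.1% lower with TGF-β1, so a call is common in this comparison. Scaled by library totals only, 2134 entries were higher and 4590 lower, against 3294 and 3288 with TMM scaling, and the median log2 fold change of all entries shifted by -0.11. All 8 genes of a TGF-β response list were higher, by 1.08 to 3.30 on the log2 scale. Of 16 proximal tubule and renal epithelial markers, 11 passed the count filter, 5 of them higher and 5 lower with TGF-β1. The 5 markers below the filter included LRP2 (megalin), a defining proximal tubule marker, with 0 reads in all 6 libraries. Of the markers that passed, PAX8 had 3002 to 6300 reads per library and GGT1 had 979 to 2053. LRP2, PAX8 and GGT1 are named here after their values were seen. CPM are counts scaled to library size, with TMM factors. The 16 markers together summed to 1217 to 1256 CPM in control libraries and 1763 to 1948 with TGF-β1. None of 6 distal nephron markers passed the filter, and they summed to at most 0.695 CPM in any library. A list of 10 fibroblast, endothelial and immune markers summed to 157 to 163 CPM in control libraries and 119 to 141 with TGF-β1. The largest means over the 6 libraries were those of CD68 (83.9 CPM) and LUM (56.4 CPM). Of the 10 markers, 4 passed the filter, 1 higher and 3 lower. PDGFRB was higher (log2 3.38), and CD68, LUM and CDH5 were lower. CDH5 had 16 to 29 reads in control libraries and 0 with TGF-β1. The part of these markers in the results below was not tested.

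The results showed modest changes in genes of synthesis, carriage and reception of retinoic acid after TGF-β1. ALDH1A3, the only ALDH1A gene with more than 2 reads in a library, fell 1.40-fold. CRABP2 rose 1.47-fold, RARA 1.43-fold and RARG 1.23-fold. The reductase DHRS3 and the degrading enzymes CYP26A1 and CYP26B1 did not pass the test. ALDH1A1, ALDH1A2 and RARB were below the count filter. In RNA from a whole culture, fewer cells with a transcript and less of it per cell cannot be told apart. Thus 4 of the 7 members tested were called, 3 higher and 1 lower, against the 44.3% of all entries. Their median log2 fold change was 0.09, and that of all entries was 0.01.

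**Figure D1:**
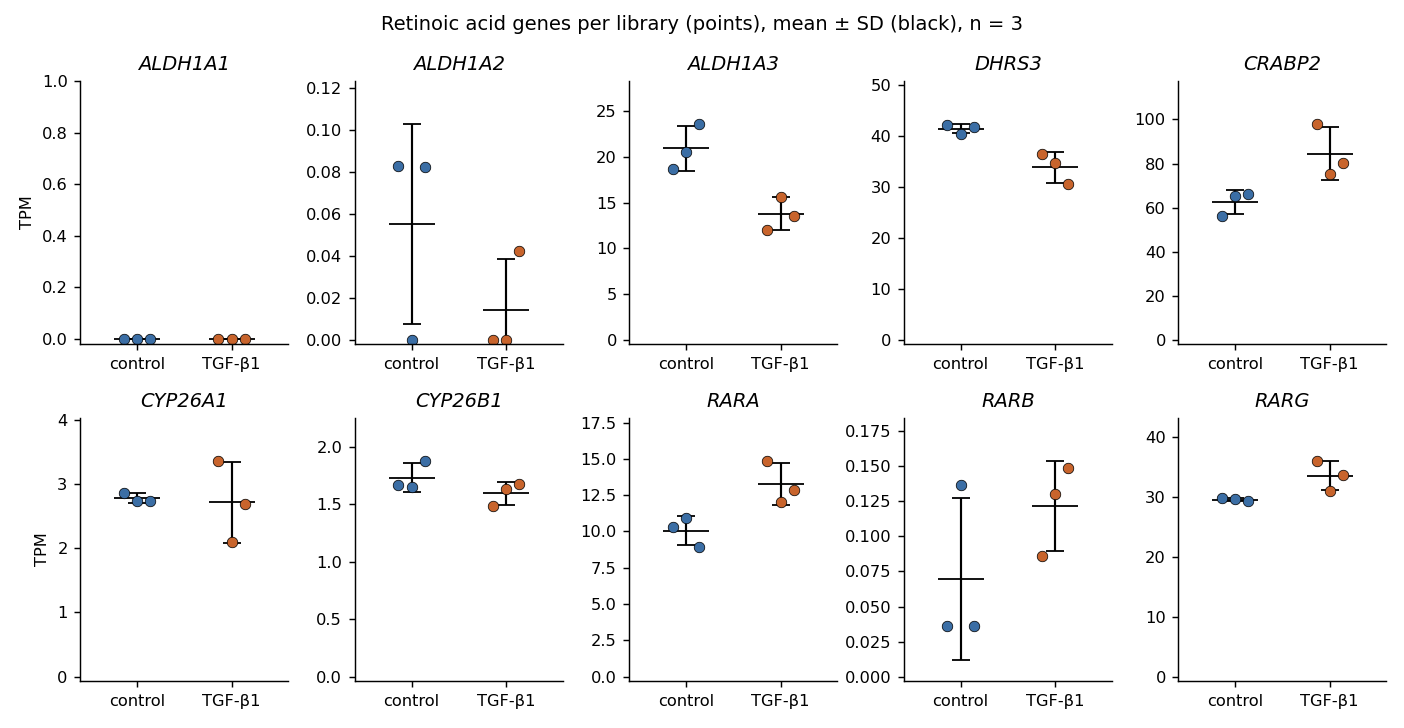
Each panel plots 1 gene, with TPM on a linear axis that starts at about 0 and has its own scale, and points for the 3 control (blue) and 3 TGF-β1 (orange) libraries with mean ± SD in black. The ALDH1A3 and DHRS3 points lie lower with TGF-β1 and those of CRABP2, RARA and RARG higher, without overlap, whereas ALDH1A1 is at 0 throughout and ALDH1A2 and RARB stay at or under 0.149 TPM.

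Levels are compared per length, as TPM (counts divided by gene length and scaled to the same total in each library). In control cells CRABP2 was highest at 62.5 ± 5.61 TPM (SD, n = 3), followed by DHRS3 at 41.4 ± 0.876, RARG at 29.6 ± 0.262, ALDH1A3 at 20.9 ± 2.47 and RARA at 10.1 ± 1.03. CYP26A1 at 2.78 ± 0.0726 and CYP26B1 at 1.73 ± 0.126 came next. The ranges of neighbours in this order did not overlap down to CYP26B1, whereas RARB, ALDH1A2 and ALDH1A1 at the bottom were not separated. With TGF-β1 the order of the means was the same, but the ranges of DHRS3 and RARG overlapped, and so did those of ALDH1A3 and RARA.

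ALDH1A3 (chromosome 15, 100879831 to 100916626, plus strand) encodes an enzyme that oxidises retinaldehyde to retinoic acid. Its TPM in the control libraries was 18.7, 20.6 and 23.6, and with TGF-β1 it was 12.1, 15.7 and 13.6. Every TGF-β1 library was below every control library. On the scale of TMM-scaled CPM it fell by 0.49 ± 0.10 (log2, SE), with a 95% interval from -0.70 to -0.27 and an adjusted p of 0.00197 (edgeR). A larger change in size was found for 26.5% of all entries tested. An antisense gene, ALDH1A3-AS1, shares 24284 bases of its span. It had 47 to 87 reads per library, against 319 to 566 for ALDH1A3, and its own log2 difference was -0.45 ± 0.20 (adjusted p = 0.0898, edgeR). The counting is not stated to use strand, so reads where both are transcribed cannot be told apart.

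The other 2 enzymes of this step were close to absent from the libraries. ALDH1A1 (chromosome 9, 72900671 to 72953053) had 0 reads in all 6 libraries, and a count of 0 allows up to 3 reads, which is 0.163 to 0.212 TPM per library (counting error only). ALDH1A2 (chromosome 15, 57953429 to 58065711), the main enzyme of the early embryo, had 2, 0 and 2 reads in control cells and 0, 0 and 1 with TGF-β1. The ratio of its reads per library size was 0.248, with an exact 95% interval from 0.00503 to 2.50, and p was 0.4 in the exact permutation test of CPM over libraries (two-sided). A difference in ALDH1A2 was not detectable at this depth. ALDH1A3 thus made up 99.6% to 100% of the summed ALDH1A TPM in each library. The share was 99.7 ± 0.232% in control and 99.9 ± 0.178% in TGF-β1 libraries (exact permutation p = 0.4, two-sided).

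DHRS3 (chromosome 1, 12567910 to 12618210) encodes a reductase that returns retinaldehyde to retinol. Its TPM was 42.1, 40.4 and 41.8 in control libraries and 36.4, 34.6 and 30.5 with TGF-β1, groups that do not overlap. In TMM-scaled CPM the values were 37.8, 35.8 and 36.2 against 36.0, 32.5 and 29.0, and here TGF-β1 replicate 1 lay inside the control range. The log2 difference was -0.17 ± 0.08, with a 95% interval from -0.35 to 0.01 and an adjusted p of 0.109 (edgeR). The call turned on the scaling and on that library. With library totals only the difference was -0.28 (adjusted p = 0.0174), and without TGF-β1 replicate 1 it was -0.26 (adjusted p = 0.00468).

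CRABP2 (chromosome 1, 156699606 to 156705784) encodes the carrier that hands retinoic acid to the receptors. In control libraries it was at 56.0, 65.4 and 66.1 TPM, and with TGF-β1 at 97.8, 75.3 and 80.4 TPM. All TGF-β1 libraries were above all control libraries, and replicate 1 stood highest. It rose by 0.56 ± 0.12 on the log2 scale of CPM, with a 95% interval from 0.30 to 0.82 and an adjusted p of 0.00377 (edgeR), and 22.5% of all entries changed more in size. Without TGF-β1 replicate 1 the log2 fold change was 0.40 (adjusted p = 0.000528).

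CYP26A1 and CYP26B1 hydroxylate retinoic acid and so clear it. CYP26A1 (chromosome 10, 93073475 to 93077885), which holds the DR5 element printed above, had 49, 50 and 47 reads in control libraries and 73, 40 and 45 with TGF-β1. The control libraries agreed closely, whereas the TGF-β1 libraries lay on both sides of them. Its log2 difference was 0.09 ± 0.21, with a 95% interval from -0.37 to 0.55 (adjusted p = 0.756, edgeR), and the sign turned with library totals only (-0.016) and without TGF-β1 replicate 1 (-0.14). CYP26B1 (chromosome 2, 72129238 to 72147862) had 55, 58 and 62 reads in control libraries and 62, 60 and 54 with TGF-β1. Its log2 difference was -0.0025 ± 0.15, with a 95% interval from -0.34 to 0.34 (adjusted p = 0.992, edgeR). These intervals leave room for a change of up to 1.47-fold in CYP26A1 and 1.27-fold in CYP26B1.

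The receptors are transcription factors that bind DNA with or without retinoic acid. RARG (chromosome 12, 53210569 to 53232231) was the most abundant, at 29.8, 29.7 and 29.3 TPM in control libraries and 36.0, 31.1 and 33.6 with TGF-β1. The groups did not overlap, and the control libraries lay close together. RARG rose by 0.30 ± 0.08 (log2 of CPM, 95% interval 0.13 to 0.47, adjusted p = 0.00859, edgeR), and 42.5% of all entries changed more in size. With library totals only its difference was 0.20 and no longer passed the test (adjusted p = 0.0657). Measured from the median of all entries under that scaling, it was 0.30. Taking off that median restores a centring like that of TMM by construction, so this value does not bear on the lost call.

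RARA (chromosome 17, 40309180 to 40357643) was at 10.3, 11.0 and 8.94 TPM in control libraries and 14.9, 12.0 and 12.9 with TGF-β1. Every TGF-β1 library was again above every control library. The rise was 0.52 ± 0.11 on the log2 scale of CPM (95% interval 0.26 to 0.77, adjusted p = 0.00449, edgeR), and it was 0.39 without TGF-β1 replicate 1 (adjusted p = 0.00252). The genes that overlap RARA on the other strand, RARA-AS1 and LOC105371934, had at most 12 reads in a library.

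RARB (chromosome 3, 24829321 to 25597932), the receptor gene with the other DR5 element, had 1, 4 and 1 reads in control libraries and 3, 4 and 4 with TGF-β1. The groups overlapped. The ratio of reads per library size was 1.82, with an exact 95% interval from 0.616 to 5.98, and the exact permutation test of CPM gave p = 0.2 (two-sided), so a difference was not detectable at this depth. Its last 28 bases also overlap TOP2B on the other strand, which had 4562 to 5481 reads per library. Both genes with a DR5 match in the windows searched were low in these cells, CYP26A1 at 40 to 73 reads and RARB at 1 to 4. Low reads were not particular to them. Among members without a match, CYP26B1 had 54 to 62 reads, ALDH1A2 had 0 to 2 and ALDH1A1 had 0.

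**Figure D2:**
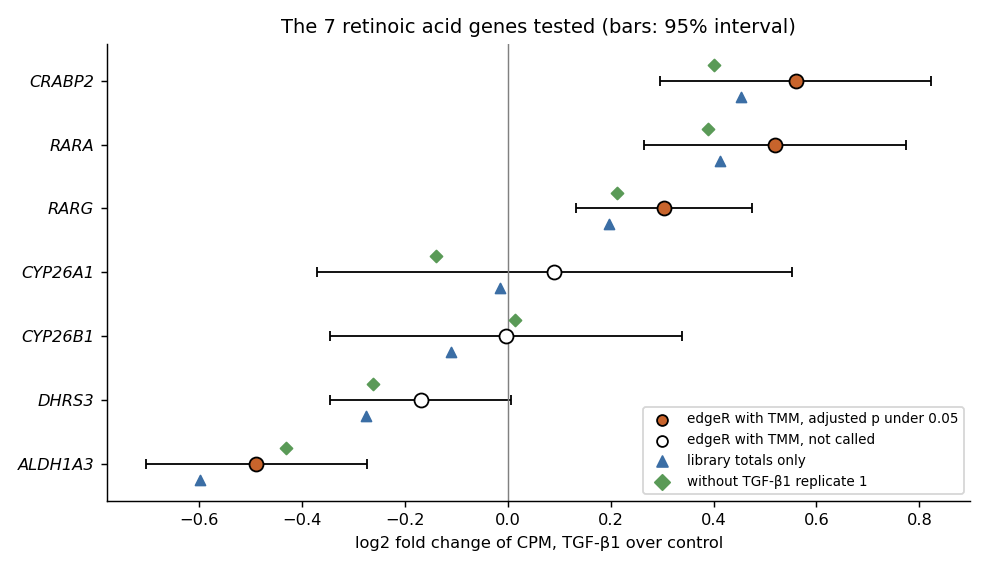
Log2 fold changes of CPM, TGF-β1 over control, for the 7 genes tested, as circles with 95% intervals (filled where the adjusted p was under 0.05), with triangles for scaling by library totals only and diamonds for the fit without TGF-β1 replicate 1. ALDH1A3 lies at -0.49 and CRABP2, RARA and RARG at 0.56, 0.52 and 0.30, while the intervals of CYP26A1, CYP26B1 and DHRS3 cross 0.

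The summed TPM of the 3 receptor genes was 40.1, 40.8 and 38.3 in control libraries and 51.0, 43.2 and 46.6 with TGF-β1. The groups did not overlap, and p was 0.1 in the exact permutation test (two-sided), the smallest that 3 libraries against 3 allow. RARG made up 74.3%, 72.8% and 76.5% of this sum in control libraries and 70.7%, 71.9% and 72.1% with TGF-β1. Its share was thus 74.5 ± 1.88% and 71.5 ± 0.759%, a difference of -3.00 percentage points (exact permutation p = 0.1). The share of RARA was 25.3 ± 1.78% in control and 28.2 ± 0.842% in TGF-β1 libraries, and RARB never exceeded 0.335%.

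CPM values that do not overlap between the groups were found for 55.6% of all entries. Among the 7 members tested they were found for 4, namely ALDH1A3, CRABP2, RARA and RARG. TGF-β1 replicate 1 had the highest CPM of all 6 libraries for CRABP2, RARA, RARG and CYP26A1. It was also the deepest library, and without it 5 of the 7 members were called, DHRS3 being added.

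The rest of the pathway was described with 4 lists of 64 genes in all, of which 40 passed the filter. Each gene was read from its entry on a primary chromosome. STRA6, RBP5, DHRS4, DGAT1 and PRAME have 2 entries of their name, RXRB has 6 and RDH13 has 10. Reads of the further entries were not counted here, so for these genes few reads or a missed filter may not mean low expression. Of the 40 tested, 10 rose and 17 fell with TGF-β1, with a median log2 fold change of -0.16. The share called was 67.5%, against 44.3% of all entries. The lists were chosen with earlier results of these data known, so the difference between these shares is no independent result about the pathway. Among the enzymes that handle retinol and retinaldehyde, 6 genes fell and 1 rose. Genes known to be induced by retinoic acid moved in both directions, 6 higher and 5 lower.

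Of 9 genes for uptake and binding of retinoids, 3 passed the filter. RBP7, a cellular retinol-binding protein, fell from 65.6 ± 1.72 to 40.2 ± 6.25 TPM (log2 -0.58 ± 0.12, adjusted p = 0.00202, edgeR). FABP5, a fatty acid-binding protein that can also carry retinoic acid, rose from 77.3 ± 5.30 to 89.8 ± 10.5 TPM (log2 0.34 ± 0.11, adjusted p = 0.0255, edgeR), but was not called with library totals only (0.23, adjusted p = 0.11), without TGF-β1 replicate 1 (0.20, adjusted p = 0.0636), or without control replicate 1 (0.37, adjusted p = 0.0565) or 3 (0.27, adjusted p = 0.105). STRA6, the membrane receptor for retinol uptake, was not called at a log2 difference of 0.16 ± 0.80. This is the value of its primary-chromosome entry alone, with 2 to 33 reads per library. The other 6 genes were below the filter, among them RBP5, which also has a further entry.

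Of 26 enzymes of retinol and retinaldehyde, 13 passed the filter and their median log2 fold change was -0.38. These 13 include a further CYP26 gene, CYP26C1, named here after its values were seen. It was at 4.42 ± 0.322 TPM in control and 3.51 ± 0.152 in TGF-β1 libraries and was not called (log2 -0.21 ± 0.14, adjusted p = 0.255, edgeR). AOX1, an aldehyde oxidase that accepts retinaldehyde among many substrates, fell most, from 15.5 ± 1.15 to 2.68 ± 0.244 TPM, or 5.33-fold in CPM (log2 -2.41 ± 0.09, adjusted p = 7.8e-09, edgeR). BCO2, which cleaves carotenoids, fell from 2.06 ± 0.369 to 0.751 ± 0.109 TPM (log2 -1.33 ± 0.22, adjusted p = 0.000665, edgeR). RDH11, a microsomal retinaldehyde reductase, was at 147 ± 4.53 and 153 ± 9.06 TPM, and its rise of 0.18 ± 0.06 (log2, adjusted p = 0.0238, edgeR) was not called with library totals only (0.07, adjusted p = 0.316), nor without control replicate 2 (0.16, adjusted p = 0.11) or 3 (0.16, adjusted p = 0.0827) or TGF-β1 replicate 2 (0.18, adjusted p = 0.0508) or 3 (0.14, adjusted p = 0.104). RDH10, which oxidises retinol to retinaldehyde just before the ALDH1A step, is named here after its values were seen. It was at 41.0, 38.3 and 41.2 TPM in control libraries and 20.2, 21.2 and 21.2 with TGF-β1, and fell 1.77-fold in CPM (log2 -0.83 ± 0.06, adjusted p = 1.1e-06, edgeR). RDH10 and ALDH1A3 were lower by 0.83 and by 0.49 on the log2 scale, and both were called in all 15 settings. AKR1B1 and RETSAT, enzymes of the same list also named after their values were seen, fell more than RDH10 (log2 -1.13 and -0.93). They too were called in all 15 settings. Whether the making of retinoic acid changed was not tested.

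Of 15 partners and coregulators of the receptors, 12 passed the filter, with 2 higher and 5 lower and a median log2 fold change of -0.10. PPARD, a nuclear receptor that also pairs with RXR, rose by 0.54 ± 0.08 (adjusted p = 0.00025, edgeR). TBL1X, a subunit of the corepressor complex, fell from 53.8 ± 2.22 to 31.6 ± 2.77 TPM (log2 -0.65 ± 0.06, adjusted p = 9.0e-06, edgeR). NCOA3, a coactivator, fell by 0.37 ± 0.11 (adjusted p = 0.0324, edgeR), but its call was lost without control replicate 1 (-0.37, adjusted p = 0.0776), 2 (-0.40, adjusted p = 0.0561) or 3 (-0.33, adjusted p = 0.101). Of the other 5 tested and not called, RXRA, which pairs with the RAR proteins, was at 31.1 ± 0.525 and 28.3 ± 2.12 TPM, with a log2 difference of -0.02 ± 0.06 (adjusted p = 0.802, edgeR).

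Of 16 genes known to be induced by retinoic acid, 14 passed the filter and their median log2 fold change was 0.11. MEIS1, a homeobox cofactor of the HOX proteins, rose from 0.632 ± 0.0360 to 2.01 ± 0.193 TPM (log2 1.78 ± 0.18, adjusted p = 1.6e-05, edgeR). HOXA4, a homeobox gene of the cluster that retinoic acid opens from its 3′ end, rose from 13.3 ± 1.27 to 22.7 ± 2.38 TPM (log2 0.89 ± 0.12, adjusted p = 0.00012, edgeR). PLAAT4, a phospholipase and acyltransferase also known as retinoic acid receptor responder 3, fell from 54.2 ± 4.12 to 13.7 ± 1.77 TPM (log2 -1.86 ± 0.13, adjusted p = 9.0e-07, edgeR). RARRES2, which encodes the secreted protein chemerin, fell from 33.7 ± 2.83 to 10.9 ± 1.14 TPM (log2 -1.51 ± 0.14, adjusted p = 6.4e-06, edgeR). These genes answer to other signals too, and retinoic acid itself was not measured.

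**Figure D3:**
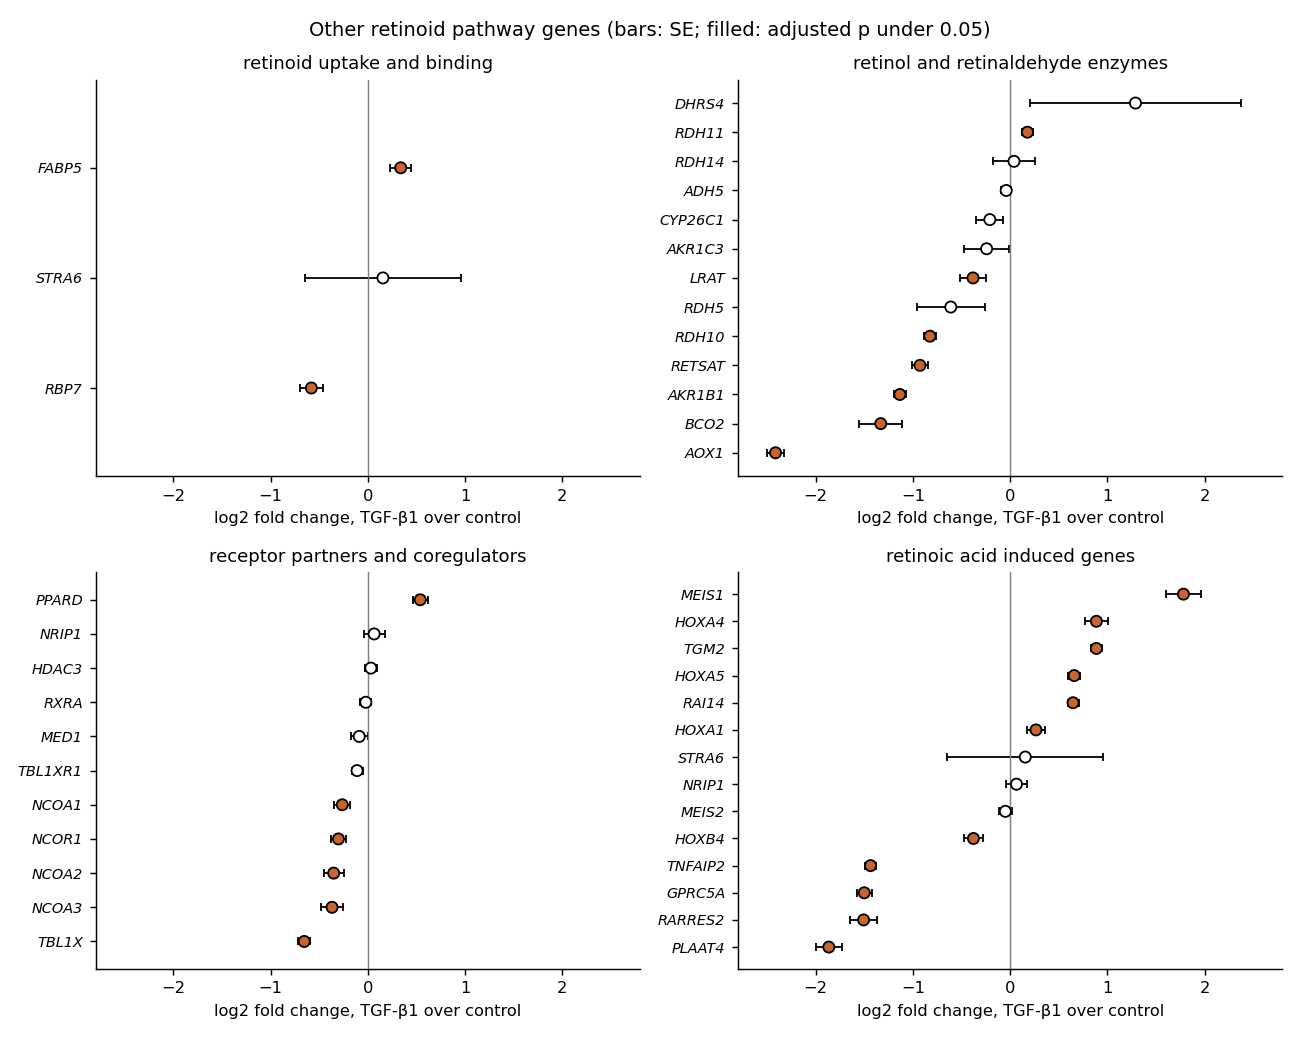
Log2 fold changes of CPM, TGF-β1 over control, with SE, for the pathway genes of the 4 lists that are reported, filled where the adjusted p was under 0.05 (STRA6 and NRIP1 are in 2 lists). Among the retinol and retinaldehyde enzymes the filled points lie mostly to the left of 0, down to AOX1 at -2.41, whereas those of the retinoic acid induced genes run from -1.86 for PLAAT4 to 1.78 for MEIS1.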

How the data were processed

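RNA of 6 libraries was captured by its poly(A) tail, copied from random hexamer primers and sequenced on an MGI instrument, per the labels and methods. The submitters' processing notes name CASAVA, featureCounts 2.0.1, DESeq2 1.16.1 and hg38. The aligner, annotation release and strand setting were not given in the sources used here. The deposited tables hold raw counts per gene with the authors' TPM and FPKM. Each listed 42095 entries, 7 of them broken over lines and rejoined. The 598 entries without a name (0.396% to 0.464% of counts) were left out. Counts were tested with the quasi-likelihood F test of edgeR 4.0.16 (TMM, filterByExpr at its defaults, robust) over 14860 named entries with Benjamini-Hochberg adjustment, and called at an adjusted p under 0.05. SE is the log2 fold change divided by the square root of F. TPM served for levels, and FPKM was not used. Exact tests permuted libraries. Intervals of read ratios are exact binomial and cover counting error only. Scripts were tested on simulated data.

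The members and lists were chosen with earlier results of these data known. The text names all members and, of each list, the 2 largest rises and the 2 largest falls that passed the test, at 1 CPM or more on average. Lists were counted on primary-chromosome entries. Of the genes this rule names, 1 is counted in its list but not reported here. Alternatives were DESeq2 1.42.0, limma-voom (limma 3.58.1), other scalings, filters and entries, a replicate block, and each library left out. Other software was R 4.3.3, Python 3.11.15, pandas 2.3.3, scipy 1.17.1 and matplotlib 3.10.9. Promoter windows were those of RefSeq on GRCh38.p14.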

Additional observations from a re-analysis of the deposited data

How the results depend on the processing

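ALDH1A3, CRABP2 and RARA kept their direction and their call in all 14 alternatives. With library totals only, RARG was 0.20 and lost its call, DHRS3 was -0.28 and gained one, and CYP26A1 turned to -0.016. That scaling moved the median of all entries by -0.11 and the higher calls from 50.1% to 31.7% of all calls. When each library was left out in turn, DHRS3 ranged from -0.26 to -0.10, CYP26A1 from -0.14 to 0.26 and CYP26B1 from -0.035 to 0.044, and CYP26B1 was 0.0073 with all entries that had a count. The cause was not tested. The number of members called was 4 to 5, and of pathway genes 20 to 28. The RARG share differed by -3.86 to -1.99 percentage points and the ALDH1A3 share by 0.07 to 0.29. The ALDH1A2 read ratio was 0 without TGF-b1 replicate 3, and the RARB ratio ranged from 1.45 to 3.56.

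The deviations of same-numbered libraries from their group means had correlations of 0.111, -0.0117 and 0.0762. Those of differently numbered libraries were not set beside them, so these values do not settle whether the numbers are pairs. The main fit did not take them as pairs. With the replicate block, 4 members and 28 pathway genes were called, with CRABP2 at 0.55 (adjusted p = 0.0183) and DHRS3 at -0.17 (adjusted p = 0.0648) by edgeR. Depth limits ALDH1A1, which had no reads, and ALDH1A2 and RARB, which with all entries kept had log2 differences of -1.67 ± 1.48 (SE, adjusted p = 0.477) and 0.84 ± 0.80 (adjusted p = 0.518) by edgeR.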
